A study of Mus musculus with 8 samples.

Results

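Transcripts of 10 genes of colony-stimulating factor and interleukin-4 signalling and its inhibition were followed across neutrophil populations of mice with and without the histamine H2 receptor (H2R). They are the receptor genes Csf3r, Csf2ra, Csf2rb, Csf2rb2 and Il4ra, the transcription factor gene Stat3, and the inhibitor genes Socs1, Socs2, Socs3 and Cish. Genes were picked by name and matched through their mouse Ensembl identifiers. All 10 of the 10 were found among the 49315 gene identifiers counted, and all 10 passed the filter on low counts, which left 14909 genes. RNA sequencing had been done on neutrophils that casein, a milk protein injected to provoke inflammation, had drawn into the peritoneal cavity of C57BL/6 mice aged 2 months. Neutrophils of low density and of high density had been purified. The 4 groups of 2 libraries each were low-density neutrophils of H2R-deficient mice (libraries 1 and 2), high-density neutrophils of H2R-deficient mice (1 and 2), low-density neutrophils of wild-type mice (2 and 4) and high-density neutrophils of wild-type mice (2 and 4). The labels name neither the allele behind the H2R deficiency nor the number of animals per library, so p-values reflect how far these libraries scatter, and that scatter may be technical.

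Granulocyte colony-stimulating factor drives neutrophil production and release through the receptor that Csf3r encodes. Granulocyte-macrophage colony-stimulating factor prolongs neutrophil life and primes the cells through a receptor made of the alpha chain encoded by Csf2ra and the beta chain encoded by Csf2rb. Csf2rb protein also serves the receptors for interleukin-3 and interleukin-5. Mice carry an additional beta chain gene, Csf2rb2, whose protein serves interleukin-3 only. Interleukin-4 acts through Il4ra and is known to restrain neutrophil expansion and migration. These receptors signal through Janus kinases, which phosphorylate STAT proteins. STAT proteins in turn switch on the SOCS genes and Cish, whose products bind receptors or kinases and end the signal. Socs3 is the main brake on the granulocyte colony-stimulating factor receptor, whereas Cish and Socs2 are classical targets of STAT5, and Socs1 is known for inhibiting Janus kinases downstream of interferon and interleukin-4.

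STAT dimers bind a palindrome with the core TTCNNNGAA, and this core was searched in the promoter windows of the genes, which run from 250 bases before to 50 bases after the annotated start (RefSeq, GRCm38.p6). The core reads the same on either strand, so 1 search covers both. Windows were present for 8 of the 10 genes, Csf2rb and Socs2 being those without one. The core stood in 3 of the 8, those of Cish, Socs3 and Csf2rb2, against 8.3% of all 32851 windows of the same length. Cish was the one of the 8 with more than 1 copy, at positions 1 to 9 and 12 to 20 counted from the start, and 0.457% of all windows held that many. Socs3 held the core at -154 to -146 and Csf2rb2 held TTCTGAGAA at -15 to -7. The Cish and Socs3 windows are shown because, among the 3 genes with the core, these are the inhibitor genes. Capitals mark the core. The Cish stretch is chr9:107296409-107296678 on the plus strand and ends 20 bases after the start. The Socs3 stretch is chr11:117969367-117969616 on the minus strand and ends at the base before the start. Both stretches lie inside the gene spans used for counting, so the RefSeq starts are not the outermost starts of those spans. A match is a description of letters and does not show binding.
Cish: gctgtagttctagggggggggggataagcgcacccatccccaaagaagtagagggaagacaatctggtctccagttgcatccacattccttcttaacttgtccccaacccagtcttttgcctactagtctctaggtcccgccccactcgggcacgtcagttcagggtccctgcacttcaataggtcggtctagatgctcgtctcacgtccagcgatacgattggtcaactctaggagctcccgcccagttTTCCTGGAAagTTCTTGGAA
Socs3: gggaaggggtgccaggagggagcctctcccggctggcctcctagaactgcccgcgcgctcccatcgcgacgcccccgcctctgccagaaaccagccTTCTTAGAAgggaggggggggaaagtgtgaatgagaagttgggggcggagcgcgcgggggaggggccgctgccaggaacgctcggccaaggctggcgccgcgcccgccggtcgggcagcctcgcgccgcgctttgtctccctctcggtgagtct

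Csf2rb and Csf2rb2 lie beside each other on chromosome 15 and are near copies. Their longest coding sequences (GENCODE M21, GRCm38) are 2691 and 2637 bases long and were identical at 95.2% of 2631 aligned bases, with a longest identical run of 242 bases. Of all 50-base stretches of the Csf2rb transcript, 18.9% also occurred in Csf2rb2, so some reads could have been assigned to either gene or discarded, and how such reads were treated is not stated in the labels. The stretch of 90 coding bases with the most differences, 16, is shown because reads there can be told apart. Capitals mark the bases that differ. It lies at chr15:78338897-78338986 on the plus strand in Csf2rb and at chr15:78294345-78294434 on the minus strand in Csf2rb2.
Csf2rb2: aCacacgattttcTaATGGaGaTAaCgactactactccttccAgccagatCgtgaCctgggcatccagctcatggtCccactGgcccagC
Csf2rb: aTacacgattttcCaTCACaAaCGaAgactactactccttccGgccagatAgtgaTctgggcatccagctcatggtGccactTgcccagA

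Libraries held 19862716 to 24199215 counts assigned to genes, and a gene with 0 counts could still have stood at 0.124 to 0.151 CPM (counts per 1000000 library counts), taking 3 counts as the floor and covering counting error only. CPM values below, other than this floor, are over library sizes scaled by TMM, edgeR's method that centres most genes on no change. The TMM factors were 1.11 to 1.49 in low-density libraries and 0.742 to 0.808 in high-density libraries, so the scaling itself separates the populations, and whether groups overlap is stated for TMM-scaled values unless raw counts are given. With TMM the median log2 fold change of all genes, low over high density, was 0.10 in either genotype, and with total counts as the only scaling it was 1.0 in H2R-deficient and 0.67 in wild-type cells. Hrh2, the gene of H2R, had 435 and 215 counts in H2R-deficient low-density libraries, 599 and 275 in H2R-deficient high-density libraries, 556 and 830 in wild-type low-density libraries and 2003 and 700 in wild-type high-density libraries. Its transcripts were thus present under every label. Hrh2 was lower in the H2R-deficient libraries of either population without overlap, and neither difference passed (log2 fold change -1.48 ± 0.55 (SE), adjusted p = 0.196, in low-density cells, and -1.60 ± 0.55, adjusted p = 0.192, in high-density cells, edgeR quasi-likelihood test). A count over the whole gene does not tell a deleted exon from a retained one.

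The 10 genes spanned a wide range of levels, compared between genes as CPM divided by exon length in kilobases (RPKM). Csf3r was the most abundant, with group means of 245 ± 4.68 RPKM in H2R-deficient low-density, 765 ± 193 in H2R-deficient high-density, 504 ± 84.4 in wild-type low-density and 1105 ± 413 in wild-type high-density libraries (SD, n = 2 each). Csf2rb, Csf2ra, Socs3, Csf2rb2 and Il4ra followed in that order in all 4 groups. Below them came Stat3 and Cish, then Socs1, and Socs2 was last in every group, at 2.59 ± 0.658, 0.0809 ± 0.0277, 1.71 ± 0.29 and 0.241 ± 0.0615 RPKM in the same group order. Neighbours in this order often lay within their spread. In H2R-deficient low-density libraries Csf3r, Csf2rb at 224 ± 25.4 RPKM and Csf2ra at 214 ± 56.3 RPKM could not be ordered. In wild-type low-density libraries Cish at 38.5 ± 22.1 RPKM and Stat3 at 38.2 ± 6.37 RPKM could not be ordered either. The exon lengths in the files count every annotated exon, 9531 bases for Socs2 and 6419 for Cish against 1220 for Socs1, which lowers the RPKM of genes with long or rarely used exons.

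**Figure D1:**
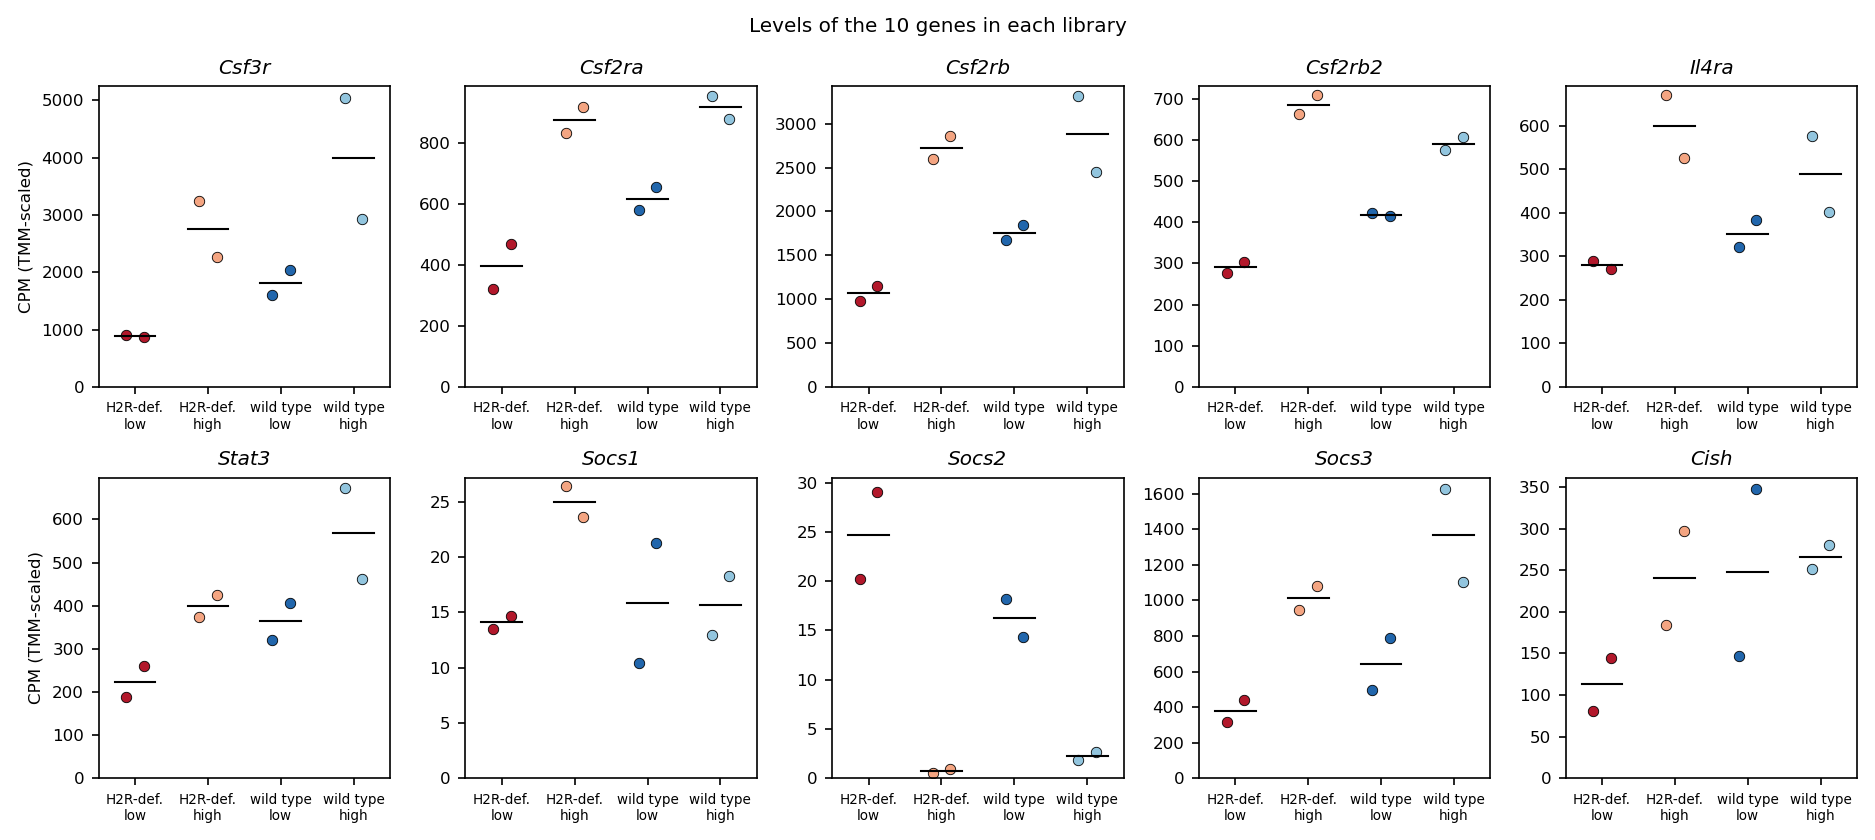
Level of each gene in each of the 8 libraries, in CPM over TMM-scaled library sizes on axes that start at 0. Points are libraries and bars are group means of 2. Socs2 is highest in the low-density libraries, at 14.3 to 29.1 CPM against 0.584 to 2.72 CPM in high-density libraries, while Csf3r, Csf2ra, Csf2rb, Csf2rb2 and Socs3 sit lower in low-density than in high-density libraries of the same genotype.

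The first comparison set low-density against high-density neutrophils of H2R-deficient mice. With TMM scaling 9 of the 10 genes were called at an edgeR adjusted p under 0.05, 8 lower and 1 higher in low-density cells. Over all genes 54.0% were called in this comparison, 23.9% lower and 30.0% higher, so calls were common outside the 10 genes too. The median log2 fold change of the 10 genes was -1.12, against 0.10 over all genes tested. With total counts as the only scaling 2 of the 10 were called, Socs2 higher and Csf3r lower, while 54.2% of all genes were, and the medians were -0.23 for the 10 genes and 1.0 for all genes. Measured from the median of all genes, the median of the 10 genes lay at -1.22 with TMM, and 9 of 10 lay below it. A change of scaling moves all genes by nearly the same amount, so this distance is nearly fixed by construction and is no check on the scaling.

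In wild-type mice the same comparison called 3 of the 10 genes, Csf3r and Socs3 lower and Socs2 higher in low-density cells, at an edgeR adjusted p under 0.05. Over all genes 12.7% were called, 4.15% lower and 8.51% higher. The median log2 fold change of the 10 genes was -0.53, against 0.10 over all genes. With total counts only, Socs2 alone was called, against 33.2% of all genes, and the median of the 10 genes was 0.04. Their median lay at -0.63 from the median of all genes with TMM, and 9 of the 10 lay below that median. Wild-type high-density library 2 weighs on the calls: without it the fold changes were -0.69 for Csf3r and -0.78 for Socs3 on the log2 scale and neither was called. Leaving out either wild-type low-density library also ended both calls, at -0.97 and -1.32 for Csf3r and -0.79 and -1.47 for Socs3. Without either H2R-deficient low-density library the Csf3r call was lost (adjusted p = 0.0522 and 0.0538), and without either H2R-deficient high-density library the Socs3 call was lost (0.0591 and 0.0590), their fold changes being -1.13 and -1.09. Neither was called by edgeR in a fit to the wild-type libraries alone (adjusted p = 0.0681 for Csf3r and 0.0741 for Socs3). Csf2rb was called without wild-type high-density library 4 (-0.92, adjusted p = 0.0418).

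**Figure D2:**
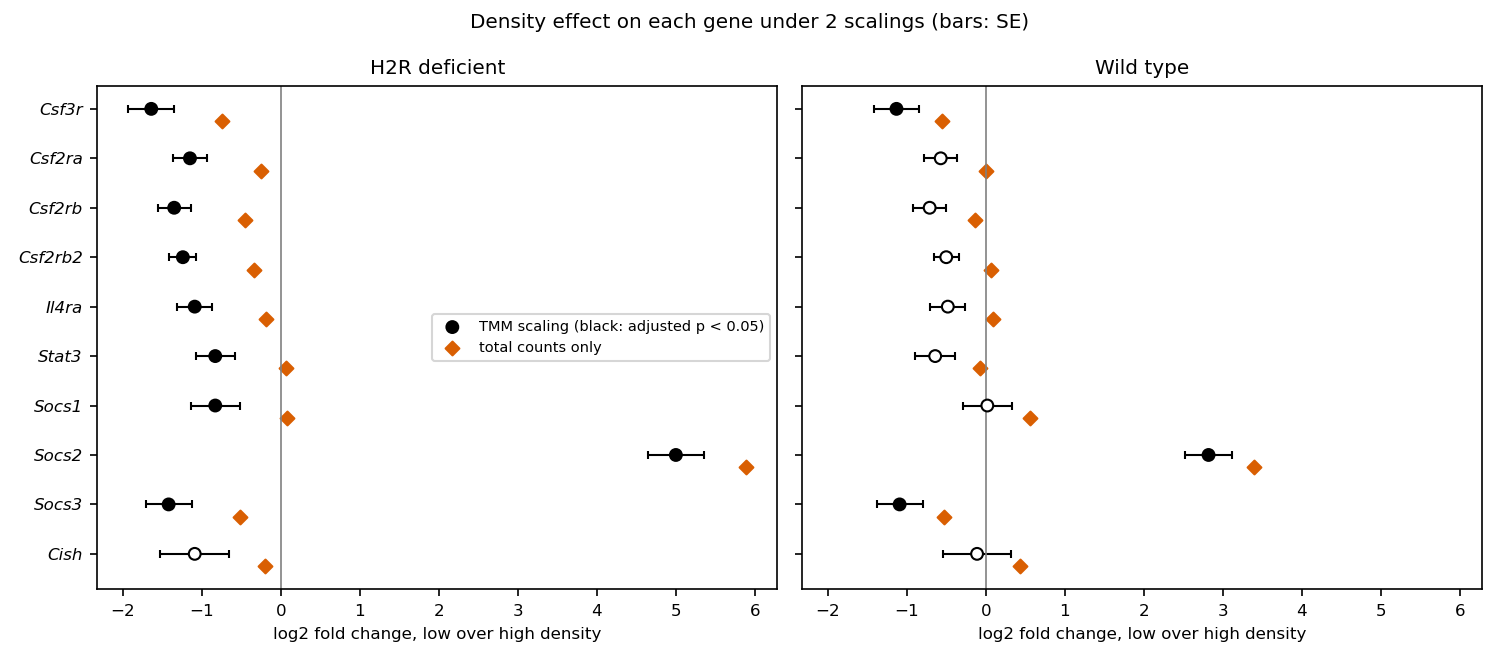
Log2 fold change of each gene, low over high density, in H2R-deficient and in wild-type neutrophils. Circles are the TMM-scaled edgeR fit with its SE, filled black where the adjusted p is under 0.05, and diamonds are the same fit on total counts only. Socs2 lies far to the right of 0 under both scalings, and every gene shifts to the right when total counts replace TMM, which brings most of the other 9 close to or past 0.

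Csf3r, the receptor of granulocyte colony-stimulating factor (ENSMUSG00000028859, chr4:126024550-126044440, plus strand, GRCm38), had the largest drop of the 5 receptor genes among the 10. It had 897 and 873 CPM in H2R-deficient low-density libraries against 3251 and 2268 CPM in H2R-deficient high-density libraries, and 1605 and 2035 CPM in wild-type low-density libraries against 5043 and 2936 CPM in wild-type high-density libraries. Low-density libraries lay below high-density libraries of their genotype without overlap, and the high-density libraries of a group differed more from each other than the low-density ones. The log2 fold change, low over high, was -1.64 ± 0.29 (SE, edgeR adjusted p = 0.00175) in H2R-deficient and -1.13 ± 0.29 (adjusted p = 0.0365) in wild-type cells. On total counts it was -0.74 (adjusted p = 0.0397) in H2R-deficient and -0.56 (adjusted p = 0.128) in wild-type cells, so the wild-type call was lost on total counts while the sign stayed.

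Csf2rb, the beta chain shared by the receptors of granulocyte-macrophage colony-stimulating factor, interleukin-3 and interleukin-5 (ENSMUSG00000071713, chr15:78325990-78351000, plus strand), had 982 and 1153 CPM in H2R-deficient low-density against 2597 and 2861 CPM in H2R-deficient high-density libraries. In wild-type cells it had 1672 and 1842 CPM in low-density against 3315 and 2449 CPM in high-density libraries. All 4 low-density libraries lay below all 4 high-density libraries, and the H2R-deficient low-density libraries were the lowest of the 8. Its log2 fold change was -1.35 ± 0.21 (SE, edgeR adjusted p = 0.000968) in H2R-deficient cells and -0.71 ± 0.21 (adjusted p = 0.0529, not called) in wild-type cells, with -0.45 and -0.14 on total counts, neither called.

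Csf2rb2, the beta chain for interleukin-3 (ENSMUSG00000071714, chr15:78282517-78305603, minus strand), had 277 and 304 CPM in H2R-deficient low-density against 663 and 710 CPM in H2R-deficient high-density libraries. In wild-type cells the levels were 422 and 416 CPM in low-density against 576 and 607 CPM in high-density libraries. The populations did not overlap in either genotype, and the wild-type low-density libraries lay between the H2R-deficient low-density and all high-density libraries. Its log2 fold change was -1.24 ± 0.17 (edgeR adjusted p = 0.000511) in H2R-deficient cells and -0.50 ± 0.16 (adjusted p = 0.0703, not called) in wild-type cells, and on total counts -0.34 and 0.07, neither called. Because the genes are near copies their split is uncertain. With their counts summed into 1 gene the log2 fold change was -1.33 (adjusted p = 0.000822) in H2R-deficient and -0.68 (adjusted p = 0.0534) in wild-type cells.

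Csf2ra, the alpha chain that binds granulocyte-macrophage colony-stimulating factor (ENSMUSG00000059326, chr19:61224402-61228418, minus strand), had 322 and 469 CPM in H2R-deficient low-density against 834 and 918 CPM in H2R-deficient high-density libraries. Wild-type cells had 579 and 655 CPM in low-density against 955 and 878 CPM in high-density libraries. Again no low-density library reached a high-density one. The log2 fold change was -1.15 ± 0.21 (edgeR adjusted p = 0.00217) in H2R-deficient and -0.57 ± 0.21 (adjusted p = 0.0975, not called) in wild-type cells, and on total counts -0.25 and 0.00, neither called.

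Il4ra, the interleukin-4 receptor alpha chain (ENSMUSG00000030748, chr7:125552120-125579474, plus strand), had 289 and 272 CPM in H2R-deficient low-density against 672 and 526 CPM in H2R-deficient high-density libraries, with no overlap. In wild-type cells 321 and 383 CPM in low-density libraries stood against 577 and 403 CPM in high-density libraries, where 1 high-density library was close to the low-density ones. Its log2 fold change was -1.09 ± 0.22 (edgeR adjusted p = 0.00337) in H2R-deficient and -0.48 ± 0.22 (adjusted p = 0.166, not called) in wild-type cells, and on total counts -0.19 and 0.09, neither called.

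Stat3, the transcription factor that carries the signal of the granulocyte colony-stimulating factor receptor (ENSMUSG00000004040, chr11:100885098-100939540, minus strand), had 188 and 260 CPM in H2R-deficient low-density against 373 and 425 CPM in H2R-deficient high-density libraries. In wild-type cells it had 321 and 407 CPM in low-density against 673 and 463 CPM in high-density libraries. Within each genotype the populations did not overlap. The log2 fold change was -0.83 ± 0.25 (edgeR adjusted p = 0.0182) in H2R-deficient and -0.64 ± 0.25 (adjusted p = 0.104, not called) in wild-type cells. On total counts it was 0.06 and -0.07, so the fall in H2R-deficient cells had no direction of its own there, and it was not called without H2R-deficient low-density library 1 (-0.61) or without H2R-deficient high-density library 2 (-0.73). Stat3 overlaps Stat5a on the opposite strand. No label gives the strand setting of the counting, and shared reads cannot be assigned with certainty, although Stat5a had 579 to 1570 counts per library against 6388 to 11423 for Stat3.

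Among the inhibitors, Socs2 was the one called higher in low-density cells. Socs2 (ENSMUSG00000020027, chr10:95385362-95417180, minus strand) encodes an adaptor that limits growth hormone and cytokine receptors. It had 730 and 823 counts (20.2 and 29.1 CPM) in H2R-deficient low-density libraries against 10 and 15 counts (0.584 and 0.957 CPM) in H2R-deficient high-density libraries. In wild-type cells it had 450 and 366 counts (18.2 and 14.3 CPM) in low-density against 32 and 46 counts (1.89 and 2.72 CPM) in high-density libraries. All low-density libraries lay above all high-density libraries. The rise was 32-fold in H2R-deficient cells (log2 fold change 5.0 ± 0.35, edgeR adjusted p = 0.000159) and 7.06-fold in wild-type cells (2.82 ± 0.30, adjusted p = 0.00315). It was 5.89 and 3.40 on the log2 scale with total counts only, called in both, and it was called in both genotypes with each of the 8 libraries left out in turn.

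Socs3, the brake on signalling by the granulocyte colony-stimulating factor receptor (ENSMUSG00000053113, chr11:117966079-117970047, minus strand), had 316 and 442 CPM in H2R-deficient low-density against 944 and 1079 CPM in H2R-deficient high-density libraries. Wild-type cells had 497 and 787 CPM in low-density against 1626 and 1105 CPM in high-density libraries. No low-density library reached a high-density one. Socs3 had a log2 fold change of -1.42 ± 0.29 (edgeR adjusted p = 0.00335) in H2R-deficient and -1.09 ± 0.29 (adjusted p = 0.0401) in wild-type cells, both called with TMM, and -0.52 and -0.53 on total counts, neither called.

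Cish, which competes for STAT5 docking sites on receptors (ENSMUSG00000032578, chr9:107296026-107302784, plus strand), had 81.3 and 145 CPM in H2R-deficient low-density against 184 and 297 CPM in H2R-deficient high-density libraries. In wild-type cells it had 147 and 348 CPM in low-density against 252 and 280 CPM in high-density libraries, where wild-type low-density library 4 was the highest of all 8. Cish had a log2 fold change of -1.09 ± 0.44 (edgeR adjusted p = 0.0636, not called) in H2R-deficient and -0.11 ± 0.43 (adjusted p = 0.879) in wild-type cells, and on total counts -0.20 and 0.43. DESeq2 called Cish lower in H2R-deficient low-density cells, and so did edgeR with no filter on low counts. In H2R-deficient cells it was called with the replicate number as a block, at -1.11 (adjusted p = 0.00312), and without H2R-deficient low-density library 2 (-1.56) or either wild-type low-density library (-1.09 and -1.07).

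Socs1, the inhibitor of Janus kinases (ENSMUSG00000038037, chr16:10783808-10785536, minus strand), was low throughout, with 221 to 544 counts per library. It had 13.5 and 14.7 CPM in H2R-deficient low-density against 26.4 and 23.6 CPM in H2R-deficient high-density libraries, and 10.4 and 21.3 CPM in wild-type low-density against 13 and 18.3 CPM in wild-type high-density libraries. Populations were apart in H2R-deficient cells and overlapped in wild-type cells. The log2 fold change was -0.83 ± 0.31 (edgeR adjusted p = 0.0497) in H2R-deficient cells, just inside the threshold, and 0.02 ± 0.31 (adjusted p = 0.971) in wild-type cells, and on total counts 0.08 and 0.56. The H2R-deficient call was lost in 6 of the 8 fits that left a library out, at -0.74 to -0.90.

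Ratios between genes within a library do not depend on how libraries are scaled. The Stat3 to Socs3 ratio per length was -2.47 and -2.48 on the log2 scale in H2R-deficient low-density libraries against -3.06 and -3.06 in H2R-deficient high-density libraries, and -2.35 and -2.67 in wild-type low-density libraries against -2.99 and -2.98 in wild-type high-density libraries. Every low-density library thus held more Stat3 per Socs3 transcript than every high-density library. The ratios are given as a description and were not tested.

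Cish to Socs2 separated the populations most, at 2.58 and 2.88 in H2R-deficient low-density against 8.87 and 8.85 in H2R-deficient high-density libraries, and 3.58 and 5.17 in wild-type low-density against 7.63 and 7.26 in wild-type high-density libraries (log2, per length). The remaining pairs separated less. Csf2ra to Csf2rb, the chains of 1 receptor, stayed between -0.43 and 0.07 in all 8 libraries, and its groups overlapped between populations in wild-type cells. Csf2rb to Csf2rb2 was 1.78 and 1.88 in H2R-deficient low-density against 1.92 and 1.96 in H2R-deficient high-density libraries, and 1.94 and 2.10 in wild-type low-density against 2.48 and 1.97 in wild-type high-density libraries, where library 2 stood above the other 7. Csf3r to Csf2rb was 0.27 and 0.00 in H2R-deficient low-density against 0.72 and 0.07 in H2R-deficient high-density libraries, which overlap, and 0.34 and 0.54 in wild-type low-density against 1.01 and 0.66 in wild-type high-density libraries, which do not. Socs3 to Cish ran from 2.33 to 3.84, with low-density below high-density libraries in wild-type cells and an overlap in H2R-deficient cells. Socs3 made up 78.8% to 91.8% of the summed RPKM of the 4 inhibitors in every library.

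**Figure D3:**
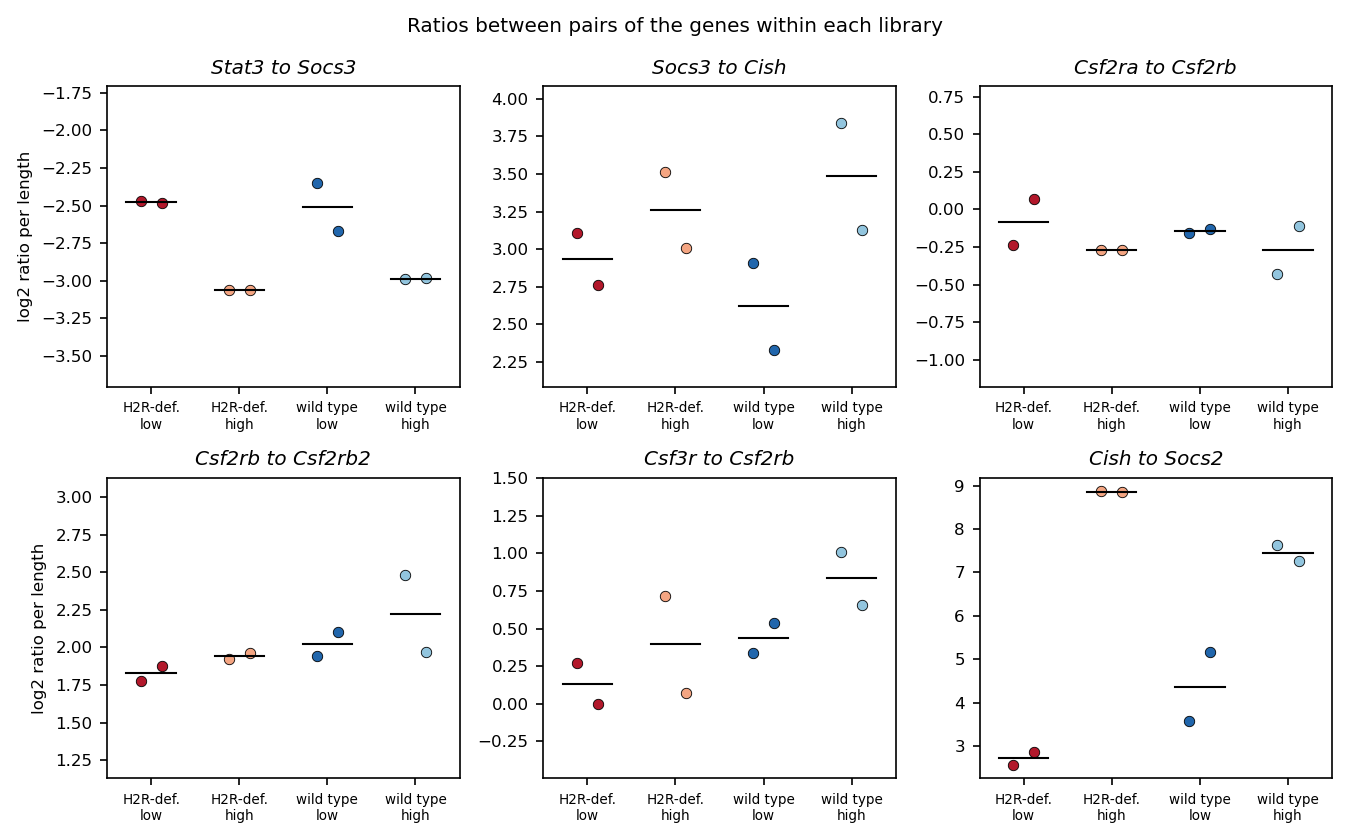
Log2 ratio per length of 6 gene pairs within each library, with points for libraries and bars for group means of 2. In Stat3 to Socs3 all low-density libraries lie at -2.67 or above and all high-density libraries at -2.98 or below, and in Cish to Socs2 the low-density libraries lie at 2.58 to 5.17 against 7.26 to 8.87 for high-density libraries; that panel spans a wider axis than the other 5.

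Whether H2R deficiency went with another level of these genes was asked within each population. In low-density cells 0 of the 10 genes and 0.0% of all genes were called by edgeR. At an unadjusted p under 0.05 stood 8 of the 10 genes and 3128 of the 14909. Limma-voom called 0 of the 10 genes and 0.0% of all genes, whereas DESeq2 called 4 of the 10, all lower in H2R-deficient cells, against 8.46% of the genes it gave an adjusted p. The median log2 fold change of the 10 genes, H2R deficient over wild type, was -0.67 against 0.05 over all genes, and -0.41 against 0.32 with total counts only. Cell type markers differed between these libraries too. Summed mature neutrophil markers had 22994 and 33741 CPM in H2R-deficient against 39138 and 55497 CPM in wild-type low-density libraries. Summed B cell markers had 836 and 1067 against 469 and 212 CPM. Their part in the levels of the 10 genes was not tested.

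Csf3r had the largest of these differences among the receptors, at 897 and 873 CPM in H2R-deficient against 1605 and 2035 CPM in wild-type low-density libraries (log2 fold change -1.04 ± 0.29, edgeR adjusted p = 0.116, DESeq2 adjusted p = 0.0149). Csf2rb followed with 982 and 1153 against 1672 and 1842 CPM (-0.72 ± 0.21, edgeR adjusted p = 0.123, DESeq2 adjusted p = 0.0269). For Csf2rb2 the values were -0.53 ± 0.16 and an edgeR adjusted p of 0.135, with a DESeq2 adjusted p of 0.0274. Cish gave -1.13 ± 0.44 (edgeR adjusted p = 0.200, DESeq2 adjusted p = 0.0497). Csf2ra, Stat3 and Socs3 gave -0.64, -0.70 and -0.76 with edgeR adjusted p-values of 0.149 to 0.184, and Il4ra gave -0.33. Socs2 had the opposite sign (0.60 ± 0.27, edgeR adjusted p = 0.237). Socs1 overlapped between the genotypes, at -0.17, and at 0.12 on total counts.

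In high-density cells edgeR called 0 of the 10 genes as well, and 0.208% of all genes, 3 genes or 0.0201% higher and 28 genes or 0.188% lower in H2R-deficient cells. Of the 10, 1 had an unadjusted p under 0.05, and 2788 of all genes did. That gene was Socs2, at 0.584 and 0.957 CPM in H2R-deficient against 1.89 and 2.72 CPM in wild-type high-density libraries (-1.58 ± 0.38, edgeR adjusted p = 0.102). DESeq2 called it (-1.60, adjusted p = 0.015) and no other of the 10, against 6.23% of its genes, and limma-voom called 0 of the 10 and 0.0134% of all genes. Receptor log2 fold changes were -0.07 for Csf2ra, -0.08 for Csf2rb, 0.21 for Csf2rb2, 0.29 for Il4ra and -0.53 for Csf3r, each with an SE of 0.16 to 0.29. With each library left out in turn Csf3r spanned -0.87 to -0.09. The median of the 10 genes was -0.11, against -0.05 over all genes. Summed eosinophil markers had 34.2 and 39.8 CPM in H2R-deficient against 101 and 117 CPM in wild-type high-density libraries. Siglecf of that list was called lower (-1.41, edgeR adjusted p = 0.0458). Summed mature neutrophil markers overlapped, at 85005 and 91089 against 85871 and 80177 CPM. The part of such markers in the levels of the 10 genes was not tested.

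The density effect in H2R-deficient minus that in wild-type cells was tested as an interaction. EdgeR called 0 of the 10 genes and 0.0% of all genes, with 2 of the 10 and 3150 of all genes at an unadjusted p under 0.05. Those 2 were Socs2, with a difference of 2.18 ± 0.46 (adjusted p = 0.0906), and Csf2rb2, with -0.74 ± 0.23 (adjusted p = 0.124). DESeq2 called both, at 2.20 (adjusted p = 0.0047) and -0.72 (adjusted p = 0.0309), against 8.95% of its genes, while limma-voom called 0 of the 10 and 0.0% of all genes. On total counts edgeR called Socs2 at 2.49 (adjusted p = 0.0387). The other 8 genes had differences between -0.99 for Cish and -0.19 for Stat3, and the larger number of calls in H2R-deficient than in wild-type cells is therefore not shown to be a difference between the genotypes.

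Markers of the cells in these preparations moved with the same groups. Transcripts of 17 mature neutrophil genes, among them Cxcr2, Mmp8, S100a8 and S100a9, were found in all libraries, with a summed level of 22994 and 33741 CPM in H2R-deficient low-density, 85005 and 91089 CPM in H2R-deficient high-density, 39138 and 55497 CPM in wild-type low-density and 85871 and 80177 CPM in wild-type high-density libraries. Low-density sums were below high-density sums in either genotype. All 17 were called lower in H2R-deficient cells (median log2 fold change -1.66) and 5 of 17 in wild-type cells (-0.83). Those not called in wild-type cells had negative log2 fold changes as well. On total counts 11 and 1 were still called lower. In bulk RNA fewer cells of a type and less RNA per cell cannot be told apart, and the part of neutrophil content in the lower receptor, Stat3 and Socs3 levels was not tested.

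Dendritic cell, B cell and natural killer (NK) cell markers rose beside Socs2 in low-density cells. Of the 9 dendritic cell markers tested from a list of 10, 7 were called higher in H2R-deficient and 6 in wild-type cells. So were 10 and 9 of 12 B cell markers and 7 and 5 of 9 NK cell markers. Summed dendritic cell markers had 484 and 713 CPM in H2R-deficient low-density against 11.2 and 16.2 CPM in H2R-deficient high-density libraries, and 462 and 215 CPM in wild-type low-density against 10.2 and 33.3 CPM in wild-type high-density libraries. B cell markers summed to 836 and 1067 against 52.4 and 77.2 CPM in H2R-deficient cells and to 469 and 212 against 63.9 and 69.2 CPM in wild-type cells, low-density libraries first in each pair. NK cell markers summed to 11.7 to 17.9 CPM in low-density and 1.12 to 2.28 CPM in high-density libraries. No gene of the 3 lists was at 0 in all low-density libraries, and the defining genes Fscn1 and Cd79a rose by 7.25 and 4.07 on the log2 scale in H2R-deficient cells and by 5.50 and 2.25 in wild-type cells, while Ncr1 was called in neither genotype. Their part in the Socs2 difference was not tested.

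**Figure D4:**
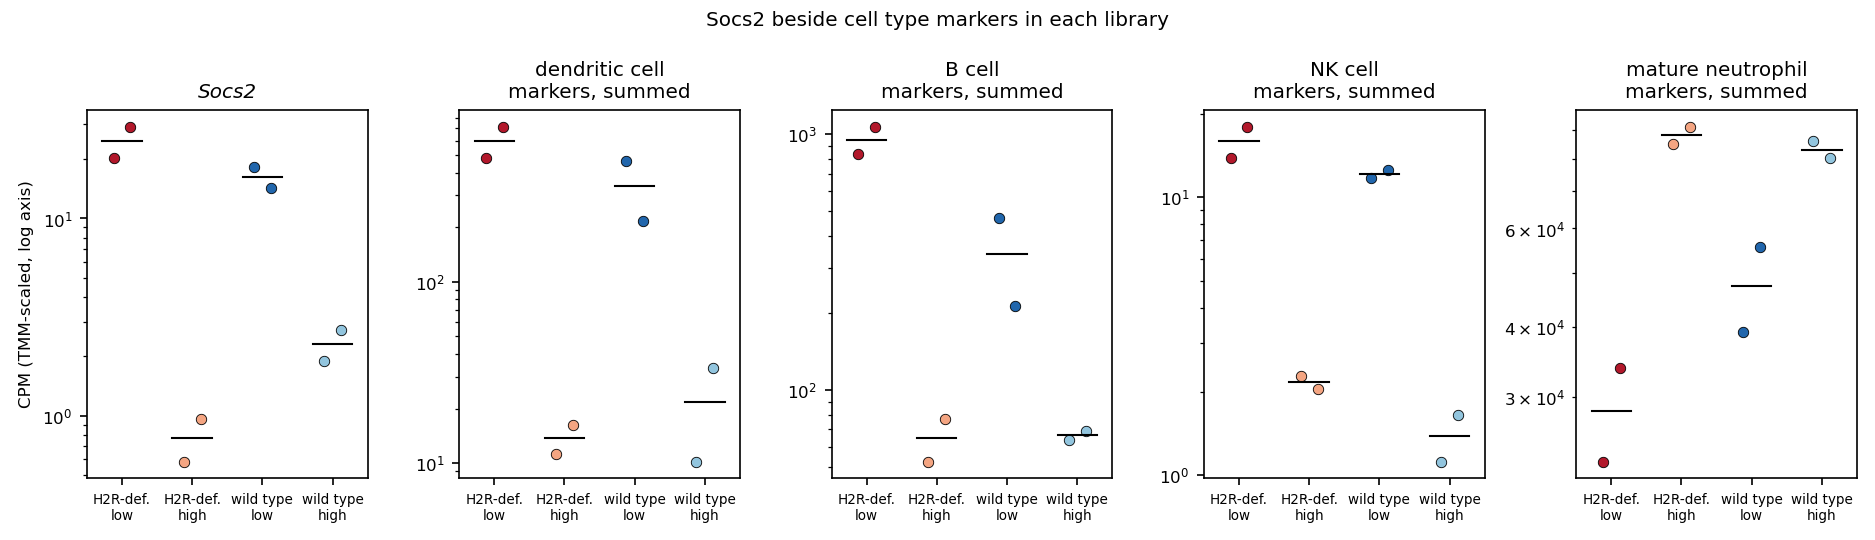
Socs2 beside the summed level of dendritic cell, B cell, NK cell and mature neutrophil markers in each library, in CPM on log axes with a range of their own. Points are libraries and bars are group means of 2. Socs2 and the first 3 marker sums are higher in low-density libraries, with Socs2 at 14.3 to 29.1 CPM against 0.584 to 2.72 CPM, and the neutrophil sum is lower there.

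Other genes of the pathway were grouped by role. Among 20 other cytokine receptors tested from a list of 22, low-density cells had 7 higher and 10 lower in H2R-deficient mice and 5 higher and 3 lower in wild-type mice, which became 8 and 2, and 8 and 0, on total counts. The risers included Lifr, a receptor chain for leukaemia inhibitory factor, with 68.3 and 93.0 CPM in H2R-deficient low-density against 4.96 and 7.47 CPM in H2R-deficient high-density libraries (log2 fold change 3.70, edgeR adjusted p = 0.000208) and with 1.72 in wild-type cells (adjusted p = 0.0176). Il5ra, the alpha chain that pairs with Csf2rb protein for interleukin-5, rose by 3.46 in H2R-deficient and 1.96 in wild-type cells, and Il2rb, a chain of the interleukin-2 receptor of lymphocytes, rose by 3.29 and 3.47. Il6ra and Il13ra1, the second of them the partner of Il4ra for interleukin-13, fell by 1.46 and 1.76 in H2R-deficient cells with TMM scaling. In wild-type cells Il6ra had -0.29 and was not called, and Il13ra1 had -0.79 (edgeR adjusted p = 0.0419). Csf1r, the macrophage colony-stimulating factor receptor, had -0.72 and -0.86 and was not called.

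Of the 10 ligands tested from a list of 15, low-density cells had 3 higher and 2 lower in H2R-deficient mice and 1 higher and 3 lower in wild-type mice, and on total counts 5 rose and 0 fell, and 1 rose and 1 fell. Il5, the eosinophil growth factor, had 129 and 35 counts in H2R-deficient low-density against 0 and 0 in H2R-deficient high-density libraries, and 23 and 56 counts in wild-type low-density against 2 and 0 in wild-type high-density libraries. Csf2, which encodes granulocyte-macrophage colony-stimulating factor, was near the detection limit in high-density libraries, with 47 and 27 against 2 and 1 counts in H2R-deficient cells and 14 and 39 against 1 and 10 counts in wild-type cells, low density before high. Csf1 fell by 1.24 in H2R-deficient and 1.14 in wild-type cells with TMM scaling, and Osm, which encodes oncostatin M, fell by 1.58 and 2.03. Il4, the interleukin-4 gene, had -0.11 in H2R-deficient cells (not called) and -1.45 in wild-type cells (edgeR adjusted p = 0.0441). Its counts were low, at 13 to 83 per library. Il6, the interleukin-6 gene, had 1.70 in H2R-deficient cells (edgeR adjusted p = 0.0135) and -0.48 in wild-type cells (not called).

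Among the kinases, Jak1 fell in both genotypes with TMM scaling (-1.02, edgeR adjusted p = 0.00148, and -0.67, adjusted p = 0.0382), and Jak2, the kinase of the Csf2rb chain, fell in H2R-deficient cells (-0.98, adjusted p = 0.00176) and had -0.25 in wild-type cells (adjusted p = 0.336). They were the calls among 4 Janus kinase genes, and on total counts 1 of the 4 rose in H2R-deficient cells and 0 were called in wild-type cells. Stat6, which carries the interleukin-4 signal, was the 1 of 6 other STAT genes called, in H2R-deficient cells (-1.30, adjusted p = 0.000425, against -0.50 and 0.0706 in wild-type cells). Stat5a at 0.31 and 0.28 and Stat5b at -0.43 and -0.50 were not called. On total counts 2 of the 6 rose in H2R-deficient and 1 in wild-type cells.

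Of 4 other SOCS genes, Socs5 rose in both genotypes (1.67, edgeR adjusted p = 0.00351, and 1.39, adjusted p = 0.0323) on 20 to 227 counts per library, and Socs4 fell in H2R-deficient cells with TMM scaling (-0.72, adjusted p = 0.0114) but took the opposite sign on total counts, where 3 of the 4 rose in H2R-deficient and all 4 in wild-type cells. Among 16 phosphatase, PIAS and adaptor genes 12 were called lower in H2R-deficient and 4 in wild-type cells with TMM scaling. Ptpn6, the phosphatase SHP-1, fell by 1.53 in H2R-deficient cells and had -0.57 in wild-type cells (not called). Sh2b2, a Janus kinase adaptor, fell by 1.14 and 0.93. On total counts 3 of the 16 rose and 1 fell in H2R-deficient cells and 3 rose in wild-type cells.

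A list of 20 known targets of STAT3 or STAT5, which holds Il4ra and Osm as well, had 4 genes higher and 14 lower in H2R-deficient and 3 higher and 8 lower in wild-type low-density cells, which became 6 and 4, and 4 and 4, on total counts. The median log2 fold changes were -1.18 and -0.60 with TMM. Myc, a growth regulator, rose, with 18.7 and 24.9 CPM in H2R-deficient low-density against 4.67 and 5.49 CPM in H2R-deficient high-density libraries, and 13.5 and 14.3 CPM in wild-type low-density against 3.65 and 5.25 CPM in wild-type high-density libraries (log2 fold change 2.10 and 1.64). Ccnd2, cyclin D2, rose by 1.69 and 0.91. Pim1, a survival kinase gene, fell by 1.21 and 0.89 with TMM scaling. Ier3, Junb and Cebpb, the last a transcription factor of emergency granulopoiesis, fell by 1.62, 1.47 and 1.55 in H2R-deficient cells. In wild-type cells their log2 fold changes were -1.44, -1.43 and -0.72, each called by edgeR with TMM scaling. In the genotype comparisons no gene of these pathway lists was called in either population.

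The genes whose profile over the 8 libraries was closest to that of 4 of the genes were found among 5836 genes averaging 10 CPM or more, by the root mean square difference of centred log2 CPM. For Csf3r they were H2-Q10 at 0.089, P2ry13 at 0.103 and Pfkfb4 at 0.139, beside a spread of the Csf3r profile itself of 0.827. Those closest to Csf2rb were Ppp1r10 at 0.033, Mctp1 at 0.056 and Dhx38 at 0.068, with a Csf2rb spread of 0.590. Socs3 was closest to Cpeb2 at 0.086, Themis2 at 0.117 and Ube2h at 0.127, with a spread of 0.745. Cish had no gene as near, with Flot2 at 0.158, Adpgk at 0.188 and Anxa1 at 0.226 and a spread of 0.654. These distances describe 8 libraries that fall into 4 groups and share the scaling.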

How the data were processed

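Total RNA of 8 libraries was prepared with a Qiagen RNeasy mini kit, per the labels' protocols. The authors deposited whole-number counts per gene together with exon lengths, per the file headers. STAR 2.5.2b, Subread 1.5.2 with featureCounts, Trimmomatic 0.36, bcl2fastq 2.17.1.14 and the build GRCm38 are listed in the submitters' processing notes. Strand setting and multi-mapping reads: not given in the sources used here. Of 49315 identifiers, 49056 had a symbol in GENCODE M21. Same-group libraries differed by more than sampling noise (chi-square per degree of freedom 34.28 to 54.36), so none was treated as a copy.

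EdgeR 4.0.16 (R 4.3.3) kept 14909 genes with filterByExpr, scaled libraries by TMM and fitted a robust quasi-likelihood model with 1 mean per group to all 8 libraries, leaving 4 residual degrees of freedom. P-values were Benjamini-Hochberg adjusted over all genes tested, and those under 0.05 were called. In counts of listed genes, higher, lower, rose and fell mean called in that direction. Alternatives were total counts only, DESeq2-type size factors, no filter on low counts, DESeq2 1.42.0, limma-voom 3.58.1 and the compared groups alone. Further alternatives were each library left out, the replicate number within genotype as a block, and Csf2rb and Csf2rb2 summed. The test was also run on simulated counts in which few genes were changed, so that run does not bear on the choice of scaling. Named genes were the 10 genes, Hrh2, up to 4 genes with the lowest adjusted p in each pathway list and contrast, Jak2, Stat5a, Stat5b, Stat6, Csf1r, Pim1 and 1 defining gene per marker list; other list members are given by count, and Csf2 was named after its values were seen. Members and lists were chosen with earlier results of these data known.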

Additional observations from a re-analysis of the deposited data

How the results depend on the processing

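The number of the 10 genes called was 9 for density in H2R-deficient cells, and 2 with total counts only. It also moved when single libraries were left out. It was 3 for density in wild-type cells, and 1 with total counts only, 5 with DESeq2-type size factors, 5 with no filter on low counts, 7 with DESeq2, 1 with the compared groups alone and 1 to 4 with each library left out. For genotype in low-density cells it was 0, and 5 with no filter and 4 with DESeq2. For genotype in high-density cells it was 0, and 1 with no filter and 1 with DESeq2, each Socs2. The difference of density effects had 0, and 1 with total counts only, 1 with no filter and 2 with DESeq2. The number of all genes called moved too: for density in wild-type cells it was 1888, and 4946 with total counts only, 3361 with no filter, 608 with the compared groups alone and 123 to 1724 with each library left out. For genotype in high-density cells it was 31, and 73 with total counts, 1095 with no filter, 677 with DESeq2, 2 with limma-voom and 0 with the compared groups alone. For genotype in low-density cells it was 0, against 1360 with no filter and 870 with DESeq2, and for the difference 0, against 635 with total counts, 1210 with no filter and 946 with DESeq2. For density in wild-type cells, the number of all genes called with DESeq2 or DESeq2-type size factors is not given here. The counts of 7 and 5, and the calls of all 10, are therefore not read as particular to these genes. The number of genes tested with no filter is not given here either, so counts with no filter have no share of all genes beside them. The cause of the moves was not tested, except that total counts leave out the TMM factors by construction.

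Signs turned with total counts for Stat3 (0.06) and Socs1 (0.08) in H2R-deficient density, for Csf2rb2 (0.07), Il4ra (0.09) and Cish (0.43) in wild-type density, for Socs1 (0.12) between genotypes in low-density cells, and for Stat3 (0.14) and Socs3 (0.01) in the difference. Wild-type Socs1, at 0.02, was -0.05 with DESeq2-type size factors, DESeq2, limma-voom and the replicate block. With each library left out, wild-type density spanned -0.58 to 0.45 for Socs1 and -0.85 to 0.39 for Cish, genotype in low-density cells -0.59 to 0.42 for Socs1, genotype in high-density cells -0.53 to 0.15 for Cish and -0.28 to 0.15 for Csf2rb, and the difference -0.48 to 0.06 for Stat3 and -0.63 to 0.07 for Socs3. Socs2 spanned 4.69 to 5.39 in H2R-deficient and 2.58 to 3.10 in wild-type density and 1.87 to 2.57 in the difference.

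The labels do not say that a replicate number marks a shared animal or day. Deviations from the group mean, compared over genes between same-numbered libraries, correlated at 0.326 in H2R-deficient and 0.155 in wild-type cells. With 2 libraries per group the 2 pairs mirror each other, so each value rests on 1 comparison. With the replicate block 10 of the 10 genes were called for density in H2R-deficient cells, Cish being added, 4 in wild-type cells, Csf2rb being added at -0.70, and 0 in the difference, with 8450, 2621 and 28 of all genes. Each block joined the same-numbered low- and high-density libraries of 1 genotype, so the genotype comparisons could not be made with it.

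With 2 libraries against 2 the smallest p an exact permutation test allows is 0.333, and calls rest on a spread shared over genes and groups. High-density Socs2 and Csf2 rest on few reads. Socs1, Socs5 and Il5 are low throughout. Levels say nothing about protein or phosphorylation.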

Other observations

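The remaining marker lists gave these counts for low against high density by edgeR. Erythroid markers fell, 5 of 5 tested in either genotype, and summed to 0.111 to 1.49 CPM in low-density against 29.1 to 226 CPM in high-density libraries. Hbb-bs, a globin gene, had a log2 fold change of -9.38 in H2R-deficient and -7.24 in wild-type cells. Eosinophil markers had 1 higher and 2 lower of 6 in H2R-deficient and 1 higher and 3 lower in wild-type cells, with Siglecf at -1.09 and -1.03. Il5ra, whose chain pairs with Csf2rb protein, stands in that list and was the gene that rose.

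Macrophage markers had 5 higher and 2 lower of 11 in H2R-deficient and 0 called in wild-type cells, where 4 had an unadjusted p under 0.05, and summed to 236 to 387 CPM in low-density against 319 to 662 CPM in high-density libraries. Monocyte markers had 3 higher and 2 lower of 7 in H2R-deficient and 1 higher and 2 lower in wild-type cells, with Ly6c2 at -1.35 and -0.24. T cell markers had 1 higher and 1 lower of 10 in H2R-deficient and 3 higher in wild-type cells, with Cd3e at 0.29 and 3.11. Mast cell and basophil markers had 4 and 1 lower of 6, with Cpa3 at -1.94 and -0.35. Of 9 neutrophil precursor markers 5 could be tested and 0 were called, with 0 and 1 at an unadjusted p under 0.05.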
